A study of Mus musculus with 10 samples.

Results

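A set of 10 genes of the bone morphogenetic protein (BMP) pathway was followed in mouse embryoid bodies of the iHA-Etv2 line, in which doxycycline induces an HA-tagged Etv2, an ETS transcription factor of blood and vessel formation. The 10 were taken by symbol out of 23337 genes in a table of raw counts, and all 10 passed the filter on low counts. They are the ligands Bmp2, Bmp4 and Bmp7, the receptor genes Acvrl1 and Eng, the inhibitory Smads Smad6 and Smad7, and the Id genes Id1, Id2 and Id3. Each of 5 groups held 2 libraries, numbered 1 and 2 by their titles. At day 2.5 there were Flk1-positive samples treated with doxycycline, doxycycline samples not labelled Flk1-positive (called other doxycycline samples here), and untreated samples. At day 2 there were doxycycline and untreated samples, neither labelled Flk1-positive. All samples carry the same inducible transgene, and they come from 1 cell line. The labels used here state neither the dose and start of doxycycline nor how the 8 libraries not called Flk1-positive were collected. Whether replicates 1 and 2 grew as separate cultures is not stated either. A p-value here rests only on the spread within pairs of libraries, estimated over all 5 groups, and that spread may be technical.

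BMP ligands are secreted dimers that bring together type I and type II receptor kinases. The activated type I receptor phosphorylates Smad1, Smad5 or Smad9, which enter the nucleus with Smad4 and switch on target genes. The Id genes and the inhibitory Smads are among the best known of those targets, and the inhibitory Smads act back on the receptors and Smads as a brake. In the early embryo and in differentiating stem cells, BMP4 is used to drive formation of mesoderm with blood and endothelial potential. Acvrl1 encodes ALK1, a type I receptor of endothelial cells for the ligands encoded by Gdf2 and Bmp10. Eng encodes endoglin, its co-receptor.

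Total counts ran from 18074070 to 36068329 per library, and levels are given as CPM, the count scaled to a common library size after TMM normalisation. The induced gene was high in every doxycycline library. Etv2 stood at 323 and 303 CPM in Flk1-positive samples, 272 and 255 CPM in other doxycycline samples and 6.57 and 7.50 CPM in untreated samples of day 2.5. At day 2 it stood at 507 and 403 CPM with doxycycline and 15.8 and 18.1 CPM without. Kdr, which encodes Flk1, had 1010 and 986 CPM in Flk1-positive samples and 405 and 433 CPM in other doxycycline samples of day 2.5. The summed level of 8 endothelial markers was 532 to 611 CPM in Flk1-positive, 252 to 254 CPM in other doxycycline and 7.83 to 9.44 CPM in untreated samples of day 2.5, and 48.5 to 59.7 CPM with and 22.7 to 26.1 CPM without doxycycline at day 2. Emcn, one of the 8, was at 0 counts in both untreated groups and in doxycycline samples of day 2, and its mean was under 1 CPM in the other groups. The 6 epiblast markers summed to 988 to 1070 CPM in Flk1-positive, 1200 to 1250 CPM in other doxycycline and 1680 to 1810 CPM in untreated samples of day 2.5. Pou5f1 made up most of that sum, with means of 827, 725 and 983 CPM in the same order. Nanog had means of 2.07, 73.4 and 252 CPM and Sox2 of 6.39, 42.5 and 84.7 CPM. Fgf5 had 38.8, 95.7 and 166 CPM and Otx2 26.4, 54.2 and 130 CPM. Utf1 differed, with 131, 234 and 133 CPM. Of the 6, 5 were called lower and 0 higher in Flk1-positive against other doxycycline samples, against 21.3% and 20.5% of all tested genes. With doxycycline at day 2.5, 5 were called lower and 1, Utf1, higher, against 13.8% and 16.1%. In bulk RNA a change in the share of a cell type and a change in RNA per cell cannot be told apart.

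RefSeq promoter sequence (GRCm38.p6) was held for 5 of the 10 genes. Shown here are the 250 bases before the start of Bmp4, Eng and Smad6, since these 3 genes were higher with doxycycline and higher again in Flk1-positive samples and their windows touch no annotated exon. They lie at chr14:46390670-46390919 on the minus strand, chr2:32646345-32646594 on the plus strand and chr9:64022060-64022309 on the minus strand. A search for 3 motifs ran on both strands. They were GGCGCC, the core of a BMP response element, CCGGAA, an ETS motif, and CAGCTG, an E-box of the kind bound by E proteins. CCGGAA reads as TTCCGG on the other strand, and shorter ETS sites were not searched for. Capitals mark a match.
Bmp4: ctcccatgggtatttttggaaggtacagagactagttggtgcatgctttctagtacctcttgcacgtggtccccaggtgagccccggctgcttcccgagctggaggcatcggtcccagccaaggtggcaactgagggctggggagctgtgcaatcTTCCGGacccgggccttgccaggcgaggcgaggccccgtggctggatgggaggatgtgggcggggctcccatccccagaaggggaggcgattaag
Eng: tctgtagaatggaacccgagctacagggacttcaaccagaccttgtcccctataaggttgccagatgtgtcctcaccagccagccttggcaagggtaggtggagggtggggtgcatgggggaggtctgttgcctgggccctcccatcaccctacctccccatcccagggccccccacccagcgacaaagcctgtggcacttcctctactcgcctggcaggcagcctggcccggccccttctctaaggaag
Smad6: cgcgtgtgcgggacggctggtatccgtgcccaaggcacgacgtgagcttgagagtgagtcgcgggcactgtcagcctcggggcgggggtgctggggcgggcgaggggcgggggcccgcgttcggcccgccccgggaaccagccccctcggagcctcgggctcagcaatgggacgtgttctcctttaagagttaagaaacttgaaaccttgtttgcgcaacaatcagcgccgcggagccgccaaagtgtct
The Bmp4 window holds 1 match to this ETS motif, whose first base lies 95 bases before the start. The Eng and Smad6 windows hold no match to the 3 motifs searched. Of 32851 promoter windows of this length, 12.0% hold the ETS motif CCGGAA, 9.59% the BMP response element core and 13.0% the E-box. The GC content of the windows is 63.2% for Bmp4, 62.4% for Eng and 66.8% for Smad6. A match is a description of the letters only, and a window without one says nothing about binding elsewhere.

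**Figure D1:**
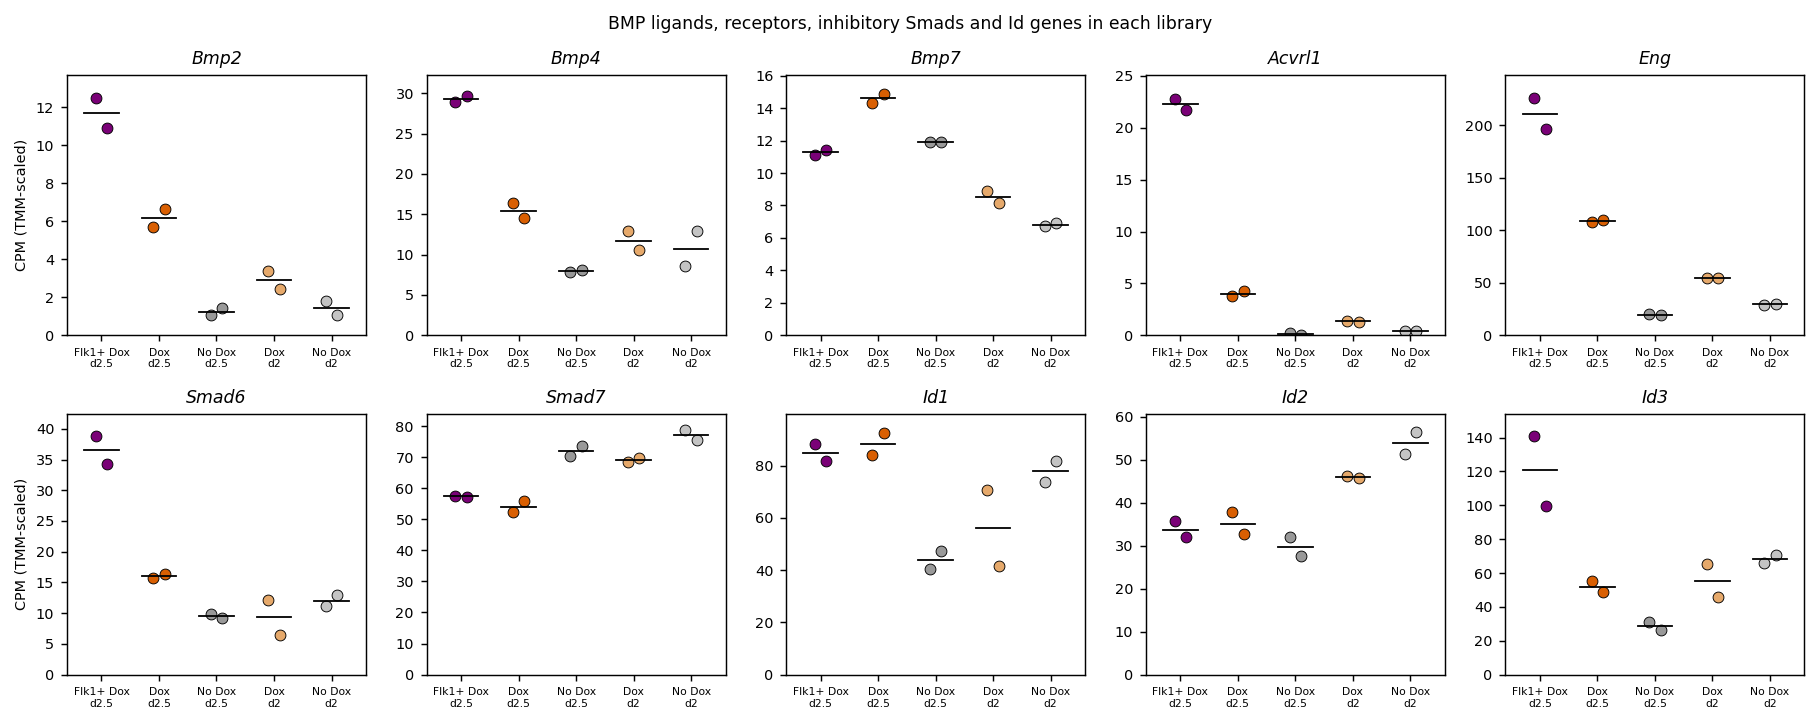
Level of each of the 10 genes in every library, in CPM of TMM-scaled library size (linear axes from 0), with points for the 2 replicates and a bar for their mean. Acvrl1 and Eng step down from Flk1-positive through other doxycycline to untreated samples of day 2.5, while Id1 stands at 85.0 and 88.3 CPM in the 2 doxycycline groups of day 2.5.

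In GRCm38 coordinates (GENCODE M21), Bmp2 lies on chromosome 2 from 133552159 to 133562885, Bmp7 on chromosome 2 from 172868012 to 172940321, Eng on chromosome 2 from 32646595 to 32682669 and Id1 on chromosome 2 from 152736251 to 152737410. Bmp4 lies on chromosome 14 from 46383520 to 46390669, Acvrl1 on chromosome 15 from 101128522 to 101145336 and Smad6 on chromosome 9 from 63953076 to 64022059. Id2 lies on chromosome 12 from 25093799 to 25097140, Id3 on chromosome 4 from 136143497 to 136145755 and Smad7 on chromosome 18. Exons of another annotated gene overlap 3.96% of the exon length of Bmp4, 2.98% of that of Acvrl1 and 1.51% of that of Eng, and none of that of the other 7. The strand setting of the counting is not given, so reads in those overlaps cannot be assigned to one gene.

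At day 2.5, doxycycline raised 2 of the 3 ligands, both receptor genes, Smad6, Id1 and Id3, and lowered Smad7. Of the 10 genes, 7 were higher and 1 was lower in other doxycycline samples than in untreated samples at an adjusted p under 0.05 (edgeR), against 16.1% of all 14548 tested genes called higher and 13.8% called lower (29.9% in either direction). The median log2 fold change of the 10 was 0.91, against 0.00 over all tested genes. The 10 genes were chosen with earlier results of these data known, so such comparisons with all genes are descriptions only. In the Flk1-positive samples, Bmp2, Bmp4, Acvrl1, Eng, Smad6 and Id3 were higher again than in other doxycycline samples. That made 6 called higher and 0 called lower, against 20.5% and 21.3% of all genes, or 41.8% in either direction (at an unadjusted p under 0.05, 6 higher and 1 lower, and with DESeq2 6 and 0), with a median of 0.92 for the 10 and 0.00 for all genes. These comparisons share the other doxycycline samples. Of 7 tested endothelial markers, 5 were called higher and 1 lower in Flk1-positive against other doxycycline samples, and 7 were called higher with doxycycline at day 2.5. The lower one was Pecam1, with means of 5.40 CPM in Flk1-positive and 8.35 CPM in other doxycycline samples, and Cdh5 was not called (31.8 and 29.4 CPM). The part of these markers in the results was not tested.

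Bmp2, a ligand that in the mouse embryo is made by extraembryonic endoderm and later by heart-forming tissues, had 12.5 and 10.9 CPM in Flk1-positive samples, 5.71 and 6.64 CPM in other doxycycline samples and 1.09 and 1.41 CPM in untreated samples of day 2.5. At day 2 it had 3.40 and 2.44 CPM with doxycycline and 1.82 and 1.04 CPM without. The 2 untreated groups overlapped and every other neighbouring pair of groups was separate. Bmp2 rose with doxycycline at day 2.5 by a log2 of 2.30 ± 0.30 (SE; edgeR, adjusted p = 2.70e-05), and by a further 0.93 ± 0.25 in Flk1-positive samples (adjusted p = 0.00778). That last call was lost without replicate 1 of the Flk1-positive samples (0.83, adjusted p = 0.0759) or of the other doxycycline samples (0.82, adjusted p = 0.0737). At day 2 the difference was 1.01 ± 0.32 and was not called (adjusted p = 0.0932). Of 7 markers of extraembryonic endoderm, Afp, Ttr and Apoa1 had means under 1 CPM in every group. The list's sum was 241 to 247 CPM in Flk1-positive, 101 to 115 CPM in other doxycycline and 29.1 to 31.5 CPM in untreated samples of day 2.5. Its tested members called higher with doxycycline at day 2.5 were Sox7 and Gata6, and Sox7 is also an endothelial gene. In Flk1-positive, other doxycycline and untreated samples of day 2.5, Sox7 had means of 153, 55.5 and 0.251 CPM. Gata6 had 80.5, 40.4 and 18 CPM in the same order, and these 2 genes made up most of the sum. Gata4 had 9.21, 11.4 and 10.7 CPM and Amn 0.224, 0.469 and 1.04 CPM, and neither was called with doxycycline. The part of such cells in the Bmp2 result was not tested.

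Bmp4, the ligand used to direct stem cells to mesoderm, had 28.9 and 29.7 CPM in Flk1-positive samples, 16.4 and 14.5 CPM in other doxycycline samples and 7.79 and 8.08 CPM in untreated samples of day 2.5. At day 2 it had 12.9 and 10.6 CPM with doxycycline and 8.53 and 12.9 CPM without, and these groups overlapped. Its level in other doxycycline samples was 1.94 times that of untreated samples at day 2.5 (log2 0.96 ± 0.19, adjusted p = 0.00111), and its level in Flk1-positive samples was 1.90 times that of other doxycycline samples (log2 0.92 ± 0.18, adjusted p = 6.96e-04). The extraembryonic ectoderm, a source of BMP4 in the embryo, was represented by 6 markers, whose sum was lowest in Flk1-positive samples (8.85 to 8.96 CPM), against 21.5 to 26.5 CPM in other doxycycline and 32.9 to 33.2 CPM in untreated samples of day 2.5. Elf5, the defining member of that list, had a mean under 1 CPM in every group. In the same order, Cdx2 had means of 1.26, 7.93 and 10.2 CPM, Tfap2c of 1.39, 10.3 and 17 CPM and Hand1 of 1.13, 1.95 and 2.95 CPM. Esx1 went the other way (2.57, 1.2 and 0.701 CPM), and Gata3 had 2.53, 2.51 and 2.14 CPM. The part of such cells in the Bmp4 result was not tested.

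Bmp7, which acts with the other ligands in many embryonic tissues, did not follow them. It had 11.1 and 11.4 CPM in Flk1-positive samples, 14.3 and 14.9 CPM in other doxycycline samples and 11.9 CPM in both untreated libraries of day 2.5. At day 2 it had 8.87 and 8.16 CPM with doxycycline and 6.71 and 6.93 CPM without. No group overlapped its neighbour in level, but the difference of other doxycycline from untreated samples (log2 0.30 ± 0.15, adjusted p = 0.157) and of Flk1-positive from other doxycycline samples (-0.38 ± 0.15, adjusted p = 0.0585) missed the threshold. The difference between Flk1-positive and other doxycycline samples was called without either doxycycline library of day 2 (adjusted p = 0.0394 without replicate 1 and 0.0392 without replicate 2). Per kilobase of exon, Flk1-positive samples held 13 CPM of Bmp4, 3.29 CPM of Bmp2 and 2.80 CPM of Bmp7, while untreated samples of day 2.5 held 3.53 CPM of Bmp4, 0.35 CPM of Bmp2 and 2.96 CPM of Bmp7.

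Acvrl1 had 22.8 and 21.7 CPM in Flk1-positive samples, 3.74 and 4.27 CPM in other doxycycline samples and 0.26 and 0 CPM in untreated samples of day 2.5, from 6 and 0 counts. A count of 0 in that library allows up to 0.124 CPM (3 counts). At day 2 the gene had 1.42 and 1.27 CPM with doxycycline and 0.43 and 0.44 CPM without. No groups overlapped. Flk1-positive samples exceeded other doxycycline samples 5.55-fold (log2 2.47 ± 0.27, edgeR adjusted p = 5.55e-06), and other doxycycline samples exceeded untreated samples of day 2.5 by a fitted log2 of 4.92 ± 0.49 (adjusted p = 1.56e-06), a size that rests on 6 counts in the untreated pair. At day 2 the difference of 1.62 ± 0.47 was not called (adjusted p = 0.0661). It was called with the DESeq2 Wald test (1.62, adjusted p = 0.00984), without the low-count filter (1.61, edgeR adjusted p = 0.0039) and with length and GC trends removed (1.61, 0.0374). It was not called with DESeq2 size factors, with only the compared groups or with a replicate block. The log2 difference was 1.69 without doxycycline day 2 replicate 2 and 1.62 without either untreated library of day 2.5. In all, 6 of 16 alternatives called it higher, these losses of a library among them. The ligands of this receptor were nearly without reads, with 0 counts of Gdf2 in any group and 1 count of Bmp10, in the Flk1-positive samples.

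Eng, unlike Acvrl1, was already well above the floor in untreated samples, and it was the 1 gene of the 10 called at day 2. It had 226 and 196 CPM in Flk1-positive samples, 108 and 110 CPM in other doxycycline samples and 19.8 and 18.9 CPM in untreated samples of day 2.5. At day 2 it had 54.2 and 54.6 CPM with doxycycline and 29.2 and 30.1 CPM without. Every group was separate from the next. The log2 fold change was 0.96 ± 0.09 for Flk1-positive against other doxycycline samples (adjusted p = 1.42e-06), 2.49 ± 0.10 for other doxycycline against untreated samples of day 2.5 (adjusted p = 5.95e-11) and 0.88 ± 0.10 for doxycycline against untreated samples of day 2 (adjusted p = 4.39e-05). Per kilobase of exon, Flk1-positive samples held 52.2 CPM of Eng and 5.22 CPM of Acvrl1, and other doxycycline samples held 26.9 and 0.94 CPM.

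**Figure D2:**
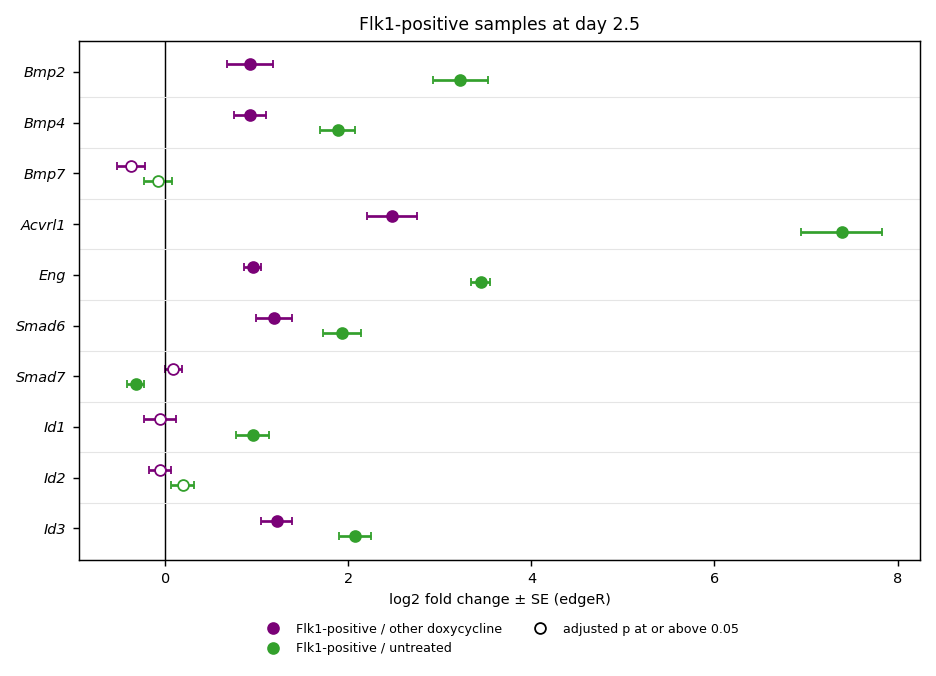
Log2 fold change ± SE (edgeR) of the 10 genes at day 2.5 in Flk1-positive samples, against other doxycycline samples (purple) and against untreated samples (green), with open circles where the adjusted p was 0.05 or above. Acvrl1 lies farthest right in both comparisons, at 2.47 and 7.39, and Id1 and Id2 lie near 0 against other doxycycline samples.

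Against untreated samples of day 2.5, the 2 inhibitory Smads went opposite ways in doxycycline samples. Smad6, which binds type I BMP receptors and activated Smad1 and so keeps Smad4 off Smad1, had 38.8 and 34.3 CPM in Flk1-positive samples, 15.7 and 16.4 CPM in other doxycycline samples and 9.92 and 9.28 CPM in untreated samples of day 2.5. Its log2 fold change was 1.19 ± 0.20 in Flk1-positive against other doxycycline samples (adjusted p = 2.49e-04) and 0.74 ± 0.21 in other doxycycline against untreated samples (adjusted p = 0.0141). With 1 of the 4 libraries compared left out, the second call went, the log2 values being 0.69 to 0.79 and the adjusted p 0.0617 without other doxycycline replicate 1, 0.0774 without replicate 2, 0.0708 without untreated day 2.5 replicate 1 and 0.106 without replicate 2. At day 2 Smad6 had 12.1 and 6.5 CPM with doxycycline and 11.1 and 12.9 CPM without, and the groups overlapped.

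Smad7, which blocks both BMP and TGF-beta receptors, had 57.6 and 57.2 CPM in Flk1-positive samples, 52.3 and 55.8 CPM in other doxycycline samples and 70.3 and 73.7 CPM in untreated samples of day 2.5. At day 2 it had 68.6 and 69.9 CPM with doxycycline and 78.7 and 75.5 CPM without. The range across groups was narrow, and the doxycycline groups of day 2.5 were the lowest. It fell by 0.41 ± 0.09 on the log2 scale in other doxycycline samples (adjusted p = 0.00264) and by 0.33 ± 0.09 in Flk1-positive samples (adjusted p = 0.00669), each against untreated samples of day 2.5. Flk1-positive and other doxycycline samples differed by 0.09 ± 0.09 (adjusted p = 0.468). Per kilobase of exon, Smad6 and Smad7 stood at 11.4 and 12.7 CPM in Flk1-positive samples, against 3.0 and 15.9 CPM in untreated samples of day 2.5.

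Id proteins are helix-loop-helix proteins without a DNA-binding region, and they hold E proteins and their partners off DNA. Id1 had 88.4 and 81.7 CPM in Flk1-positive samples, 84.2 and 92.5 CPM in other doxycycline samples and 40.5 and 47.2 CPM in untreated samples of day 2.5. The 2 doxycycline groups overlapped and the untreated group was lower. Other doxycycline samples were 2.02 times the untreated samples (log2 1.01 ± 0.18, adjusted p = 7.06e-04), and Flk1-positive samples were 1.94 times them (log2 0.96 ± 0.18, adjusted p = 4.75e-04). Between Flk1-positive and other doxycycline samples the log2 difference was -0.05 ± 0.18 (adjusted p = 0.830).

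Id3 differed from Id1 in the Flk1-positive samples, where it had 141 and 99.8 CPM, against 55.2 and 48.7 CPM in other doxycycline samples and 31.0 and 26.5 CPM in untreated samples of day 2.5. Its log2 fold change was 1.22 ± 0.17 in Flk1-positive against other doxycycline samples (adjusted p = 6.98e-05) and 0.86 ± 0.17 in other doxycycline against untreated samples (adjusted p = 0.00193). The 2 Flk1-positive libraries lay further apart than those of the other 2 groups, and both were above every other library. Id2 had 35.6 and 31.9 CPM in Flk1-positive samples, 37.7 and 32.6 CPM in other doxycycline samples and 31.9 and 27.5 CPM in untreated samples of day 2.5. Its log2 difference was -0.06 ± 0.12 in Flk1-positive against other doxycycline samples (adjusted p = 0.731) and 0.25 ± 0.12 in other doxycycline against untreated samples (adjusted p = 0.142). Per kilobase of exon, Flk1-positive samples held 73.3 CPM of Id1, 67.3 CPM of Id3 and 13.8 CPM of Id2.

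**Figure D3:**
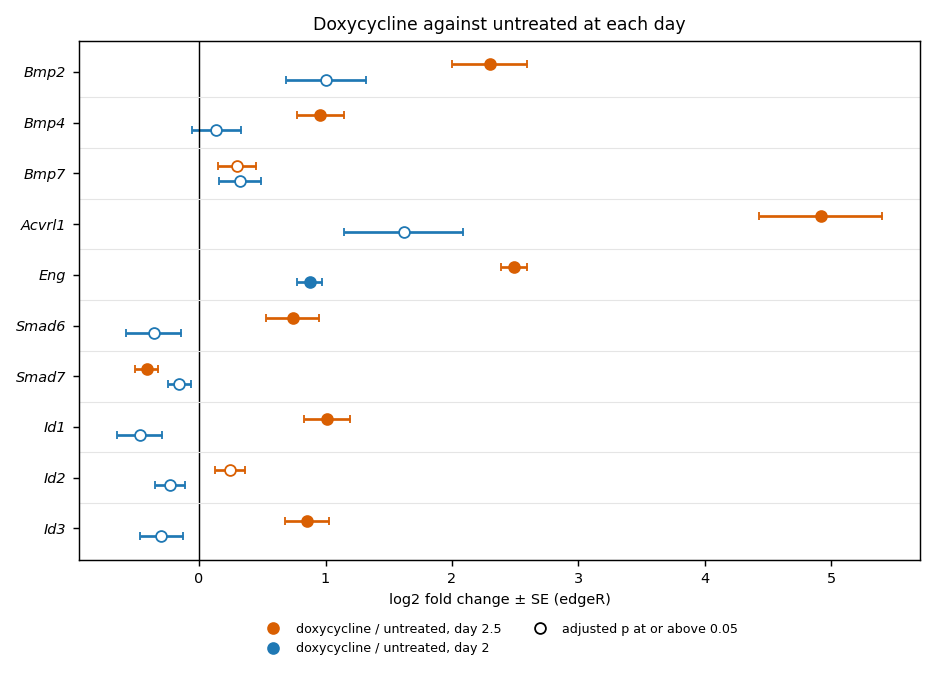
Log2 fold change ± SE (edgeR) of doxycycline against untreated samples for the 10 genes at day 2.5 (orange) and at day 2 (blue), with open circles where the adjusted p was 0.05 or above. At day 2.5 the values run from -0.41 for Smad7 to 4.92 for Acvrl1, and at day 2 Eng, at 0.88, has the 1 filled circle.

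At day 2, doxycycline changed few of the 10 genes. Eng was called higher and 0 were called lower (edgeR), against 3.11% and 1.56% of all genes, or 4.67% in either direction. At an unadjusted p under 0.05 the counts were 3 higher and 1 lower, and with DESeq2 2 higher and 0 lower. The median log2 fold change of the 10 was -0.01, against 0.00 over all tested genes. The 3 Id genes had lower means with doxycycline, and none was called. Id1 had 70.6 and 41.6 CPM with doxycycline and 73.8 and 81.9 CPM without (log2 -0.47 ± 0.18, adjusted p = 0.180). Id2 had 46.1 and 45.7 CPM against 51.4 and 56.3 CPM (-0.23 ± 0.12, adjusted p = 0.361), and Id3 had 65.1 and 45.8 CPM against 66.1 and 70.6 CPM (-0.30 ± 0.17, adjusted p = 0.423). The doxycycline libraries of day 2 differed in Smad6, Id1 and Id3, replicate 1 being 1.87 times replicate 2 for Smad6, 1.70 times for Id1 and 1.42 times for Id3, while for Id2 the ratio was 1.01. Without replicate 1, Smad6 (-0.88, adjusted p = 0.00261), Id1 (-0.90, adjusted p = 7.47e-07) and Id3 (-0.58, adjusted p = 0.0325) were called lower. Without replicate 2 none of the 3 was called, and Bmp2 (1.22, adjusted p = 0.0174) and Acvrl1 (1.69, adjusted p = 0.0231) were called higher beside Eng. This pair had a chi-square per gene of 31.8 between its libraries, against 3.29 to 9.52 in the other 4 pairs.

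Between day 2 and day 2.5 the untreated samples lost RNA of Id1, Id2 and Id3. Id4, an Id gene outside the 10, had means of 4.36 CPM at day 2 and 4.88 CPM at day 2.5 in untreated samples. Of the 10 genes, 1 was higher and 4 were lower at day 2.5 than at day 2 without doxycycline, against 9.22% and 10.3% of all genes, or 19.5% in either direction, with a median of -0.52 for the 10 and -0.02 for all genes. Id3 fell by 1.25 ± 0.18 on the log2 scale (adjusted p = 5.41e-04), Id2 fell by 0.86 ± 0.12 (adjusted p = 4.26e-04) and Id1 fell by 0.83 ± 0.18 (adjusted p = 0.00687). Eng fell by 0.61 ± 0.10 (adjusted p = 0.00118), and Bmp7 rose by 0.80 ± 0.16 (adjusted p = 0.00382). In the CPM values given above, the day 2.5 and day 2 untreated libraries did not overlap for any of these 5. The Id1 call was lost without untreated day 2 replicate 2 (adjusted p = 0.0649) or untreated day 2.5 replicate 1 (0.0616), and that of Bmp7, the 1 gene called higher, without untreated day 2 replicate 1 (0.0518). Over the same interval the summed level of 5 primitive streak and nascent mesoderm markers was 2490 to 2850 CPM at day 2.5, against 1160 to 1190 CPM at day 2, with 3 of the 5 called higher and 0 lower. Of 7 tested endothelial markers, 4 were called lower and 0 higher (median -1.60), and Kdr fell by 1.99 and Etv2 by 1.26 on the log2 scale. The part of any of these in the changes of the 10 genes was not tested.

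With doxycycline the interval looked different. Of the 10 genes, 6 were higher and 2 were lower in other doxycycline samples of day 2.5 than in doxycycline samples of day 2, against 22.9% and 23.1% of all genes, or 46.0% in either direction, with a median of 0.72 for the 10 and 0.00 for all genes. Acvrl1 (1.57 ± 0.33, adjusted p = 0.00121), Bmp2 (1.08 ± 0.27, adjusted p = 0.00448), Eng (1.0 ± 0.09, adjusted p = 1.10e-06), Smad6 (0.78 ± 0.21, adjusted p = 0.00712), Bmp7 (0.78 ± 0.16, adjusted p = 8.66e-04) and Id1 (0.65 ± 0.18, adjusted p = 0.00822) rose on the log2 scale. Id2 (-0.38 ± 0.12, adjusted p = 0.0155) and Smad7 (-0.36 ± 0.09, adjusted p = 0.00464) fell, while Id3 (-0.10 ± 0.17, adjusted p = 0.678) and Bmp4 (0.40 ± 0.18, adjusted p = 0.0896) were not called. The Smad6 and Id1 changes varied with the discordant day 2 pair, from 0.40 without replicate 2 to 1.30 without replicate 1 for Smad6 and from 0.32 to 1.09 for Id1. With only the compared groups in the fit, the calls of Smad6 (0.79, adjusted p = 0.0600), Id1 (0.66, adjusted p = 0.0529) and Id2 (-0.38, adjusted p = 0.0558) were lost, and the Id2 call was also lost with length and GC trends removed (-0.21, adjusted p = 0.129). The Smad6 call was lost without doxycycline day 2 replicate 2 (adjusted p = 0.0511), and without other doxycycline replicate 2 those of Id1 (0.0563) and Id2 (0.172) were lost, as was that of Smad7 without other doxycycline replicate 1 (0.0602).

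**Figure D4:**
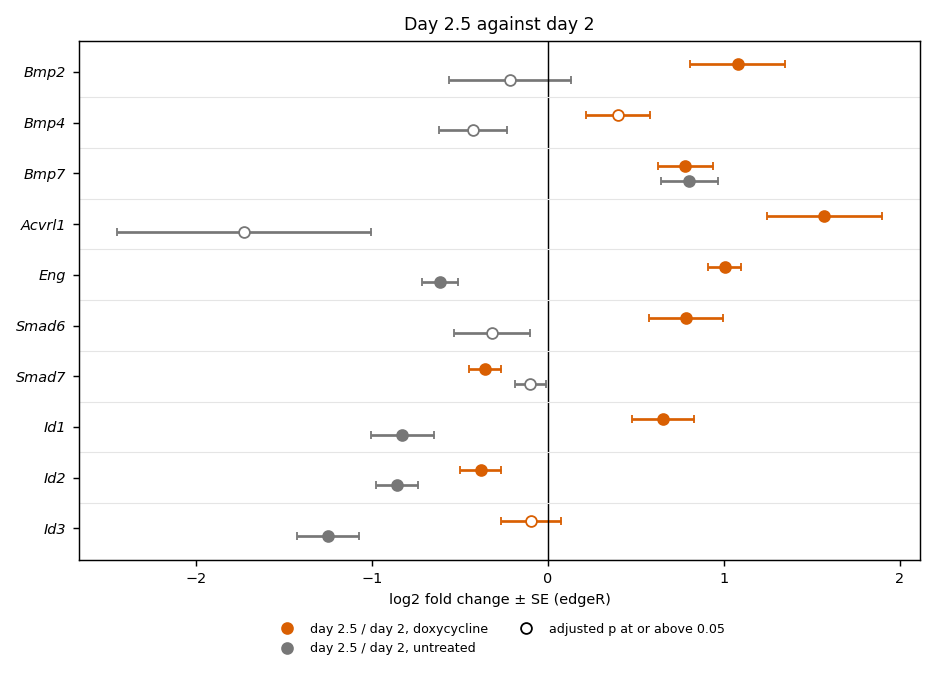
Log2 fold change ± SE (edgeR) of day 2.5 against day 2 for the 10 genes in doxycycline samples not labelled Flk1-positive (orange) and in untreated samples (grey), with open circles where the adjusted p was 0.05 or above. Id1 lies at 0.65 with doxycycline and -0.83 without, and Bmp7 lies at 0.78 and 0.80.

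The difference between these intervals was tested as the interaction of doxycycline and day. Of the 10 genes, 5 had a higher doxycycline effect at day 2.5 than at day 2 and 0 a lower one (edgeR), against 6.87% and 5.24% of all genes, or 12.1% in either direction (8 and 0 at an unadjusted p under 0.05, and 6 and 0 with DESeq2). They were Acvrl1 (3.30 ± 0.79, adjusted p = 0.0126), Eng (1.61 ± 0.14, adjusted p = 1.99e-06), Id1 (1.48 ± 0.25, adjusted p = 0.00168), Id3 (1.15 ± 0.24, adjusted p = 0.00690) and Smad6 (1.10 ± 0.30, adjusted p = 0.0270). Bmp4 (0.82 ± 0.27, adjusted p = 0.0575) and Bmp2 (1.29 ± 0.44, adjusted p = 0.0701) missed the threshold, and Bmp7 gave -0.02 ± 0.22 (adjusted p = 0.966). For Id1 and Id3 the interaction joined a fall of the untreated samples to a level that rose or was not called in doxycycline samples. Without doxycycline day 2 replicate 1 the number called higher was 8, and without untreated day 2 replicate 2 it was 3. The Smad6 call was lost with only the compared groups in the fit (1.11, adjusted p = 0.0527) and without any 1 of the untreated or day 2.5 libraries that entered it, and that of Acvrl1 without either untreated day 2 library (adjusted p = 0.0720 without replicate 1 and 0.0511 without replicate 2).

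Set against untreated samples of the same day, the Flk1-positive samples had 7 of the 10 genes higher and 1 lower, against 28.6% and 26.6% of all genes, or 55.3% in either direction, with a median of 1.91 for the 10 and 0.01 for all genes. The largest fitted difference among the 10 was that of Acvrl1 (log2 7.39 ± 0.44, adjusted p = 1.72e-09), followed by Eng (3.45 ± 0.10, adjusted p = 5.14e-13), Bmp2 (3.22 ± 0.30), Id3 (2.07 ± 0.18), Smad6 (1.93 ± 0.21) and Bmp4 (1.88 ± 0.19). Bmp7 (-0.08 ± 0.16, adjusted p = 0.688) and Id2 (0.19 ± 0.12, adjusted p = 0.204) were not called.

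Other genes of the pathway were read from lists of 67 genes in all. The share of all genes to hold the counts against is 20.5% higher and 21.3% lower in Flk1-positive against other doxycycline samples, and 16.1% higher and 13.8% lower with doxycycline at day 2.5, and the median over all genes is 0.00 in both. List medians in the first comparison were -0.24 for ligands, 0.06 for receptors, -0.50 for antagonists, -0.14 for Smads and regulators, 0.10 for Id4 and the E proteins, -0.77 for targets and 0.14 for genes tied to Acvrl1. With doxycycline they were 0.60 for ligands, -0.25 for receptors, -0.07 for antagonists, 0.18 for Smads and regulators, 0.33 for Id4 and the E proteins, -0.15 for targets and 1.33 for genes tied to Acvrl1. Among 12 further ligands, 7 passed the filter, and 3 of these rose and 1 fell with doxycycline at day 2.5, while 3 rose and 2 fell in Flk1-positive against other doxycycline samples. Bmp6, a ligand close to Bmp7 in sequence, averaged 39.1 ± 4.81 CPM in Flk1-positive, 13 ± 2.81 CPM in other doxycycline and 1.40 ± 0.07 CPM in untreated samples of day 2.5 (SD, n = 2). It rose by a log2 of 1.59 ± 0.22 in Flk1-positive against other doxycycline samples (adjusted p = 3.77e-05) and 3.21 ± 0.28 with doxycycline (adjusted p = 3.67e-07). Where a pair of fold changes follows, these 2 comparisons are given in the same order. Bmp8a rose in both (1.78 ± 0.29 and 2.80 ± 0.39), Gdf6 rose with doxycycline (1.67 ± 0.39), and Gdf3, a ligand of pluripotent cells, fell by 4.76 ± 0.29 in Flk1-positive against other doxycycline samples and by 0.80 ± 0.17 with doxycycline. Among 12 further receptors and co-receptors, 1 rose and 4 fell with doxycycline, and 2 rose and 5 fell in Flk1-positive against other doxycycline samples. The 1 of 12 rising with doxycycline and 2 of 12 rising in Flk1-positive samples are below the shares of all genes. Tgfbr2, the TGF-beta type II receptor, rose with doxycycline (2.70 ± 0.21) and differed by 0.18 ± 0.18 in Flk1-positive samples. The BMP co-receptor genes Rgma (-3.41 ± 0.29 and -1.40 ± 0.20) and Rgmb (-0.88 ± 0.18 and -0.71 ± 0.16) fell in both, and Tgfbr3, which encodes betaglycan, rose by 0.97 ± 0.12 in Flk1-positive against other doxycycline samples and fell by 0.78 ± 0.12 with doxycycline.

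Of 14 antagonist genes, 12 passed the filter. With doxycycline 3 rose and 4 fell, and in Flk1-positive against other doxycycline samples 2 rose and 2 fell. Fst, which encodes the activin and BMP antagonist follistatin, fell at both steps, to 13.5 ± 3.27 CPM in Flk1-positive and 78.5 ± 5.16 CPM in other doxycycline samples, against 420 ± 3.32 CPM in untreated samples of day 2.5 (log2 -2.52 ± 0.13 and -2.42 ± 0.12). Bambi, a decoy receptor, rose at both steps (1.20 ± 0.13 and 0.87 ± 0.13), Fstl1 rose with doxycycline (0.97 ± 0.09) and Bmper fell with it (-1.73 ± 0.32). Of 11 signalling Smads and regulators, 3 rose and 1 fell with doxycycline, and 2 rose and 4 fell in Flk1-positive against other doxycycline samples. The 1 of 11 falling with doxycycline and 2 of 11 rising in Flk1-positive samples are below the shares of all genes. Smad5 rose in both, with 264 ± 19.9 CPM in Flk1-positive, 189 ± 1.71 CPM in other doxycycline and 82.4 ± 3.21 CPM in untreated samples of day 2.5 (log2 0.48 ± 0.11 and 1.2 ± 0.12). In Flk1-positive against other doxycycline samples Smad4 (-0.32 ± 0.09), Ski (-0.34 ± 0.09) and Tob1 (-0.84 ± 0.14) fell, and Ski rose with doxycycline by 0.27 ± 0.09. Of the calls in Flk1-positive samples, that of Smad5 was lost without Flk1-positive replicate 2 (0.40, adjusted p = 0.0527), that of Smad4 without either other doxycycline library or Flk1-positive replicate 1 (0.0521 to 0.0859), and that of Ski without replicate 2 of either group (0.0906 and 0.141). The fall of Rgmb with doxycycline was lost without untreated day 2.5 replicate 1 (-0.57, adjusted p = 0.0670). The Ski rise was lost without any 1 library other than the doxycycline libraries of day 2 (adjusted p = 0.0723 to 0.252), and also with DESeq2 (0.0556), with its size factors (0.0608) or without the low-count filter (0.0769).

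Id4, the fourth Id gene, rose at both steps, with 26.3 ± 1.11 CPM in Flk1-positive, 15.3 ± 3.17 CPM in other doxycycline and 4.88 ± 1.30 CPM in untreated samples of day 2.5 (log2 0.78 ± 0.19, adjusted p = 0.00434, and 1.64 ± 0.21, adjusted p = 2.53e-05). The first of these calls was lost without other doxycycline replicate 1 (0.58, adjusted p = 0.0752). Among the 3 E protein genes, which encode the partners that Id proteins bind, Tcf4 rose with doxycycline (0.46 ± 0.12), a call lost without other doxycycline replicate 1 or untreated day 2.5 replicate 2 (adjusted p = 0.0838 and 0.0899). Of 9 other BMP target genes, 2 rose and 2 fell with doxycycline, and 2 rose and 4 fell in Flk1-positive against other doxycycline samples. These counts with doxycycline, and the 2 of 9 rising in Flk1-positive samples, are near the shares of all genes. Tbx3 (0.37 ± 0.14 and 1.5 ± 0.15) rose in both, Prdm1 rose with doxycycline (1.15 ± 0.21), Cdx2 fell by 2.62 ± 0.29 in Flk1-positive samples, and Evx1 rose by 1.05 ± 0.14 in Flk1-positive samples and fell by 1.74 ± 0.14 with doxycycline. Tbx3 was no longer called in Flk1-positive against other doxycycline samples with 1 of these 4 libraries left out (adjusted p = 0.0838 to 0.254), nor without either untreated day 2 library (0.0629 and 0.0627) or with length and GC trends removed (0.28, adjusted p = 0.0732). Of 5 genes tied to Acvrl1 signalling in endothelium, 3 rose with doxycycline, and 2 rose and 1 fell in Flk1-positive against other doxycycline samples. Hey1 (1.26 ± 0.13 and 1.37 ± 0.14) and Gja4, which encodes an arterial connexin (1.67 ± 0.37 and 2.5 ± 0.48), rose in both, Hey2 rose with doxycycline (1.33 ± 0.35), and Tmem100 fell by 1.07 ± 0.30 in Flk1-positive samples. The Hey2 call was lost without other doxycycline replicate 2 or either untreated day 2.5 library (adjusted p = 0.0550 to 0.0582), and that of Tmem100 without other doxycycline replicate 1 or either Flk1-positive library (0.0548 to 0.0556).

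**Figure D5:**
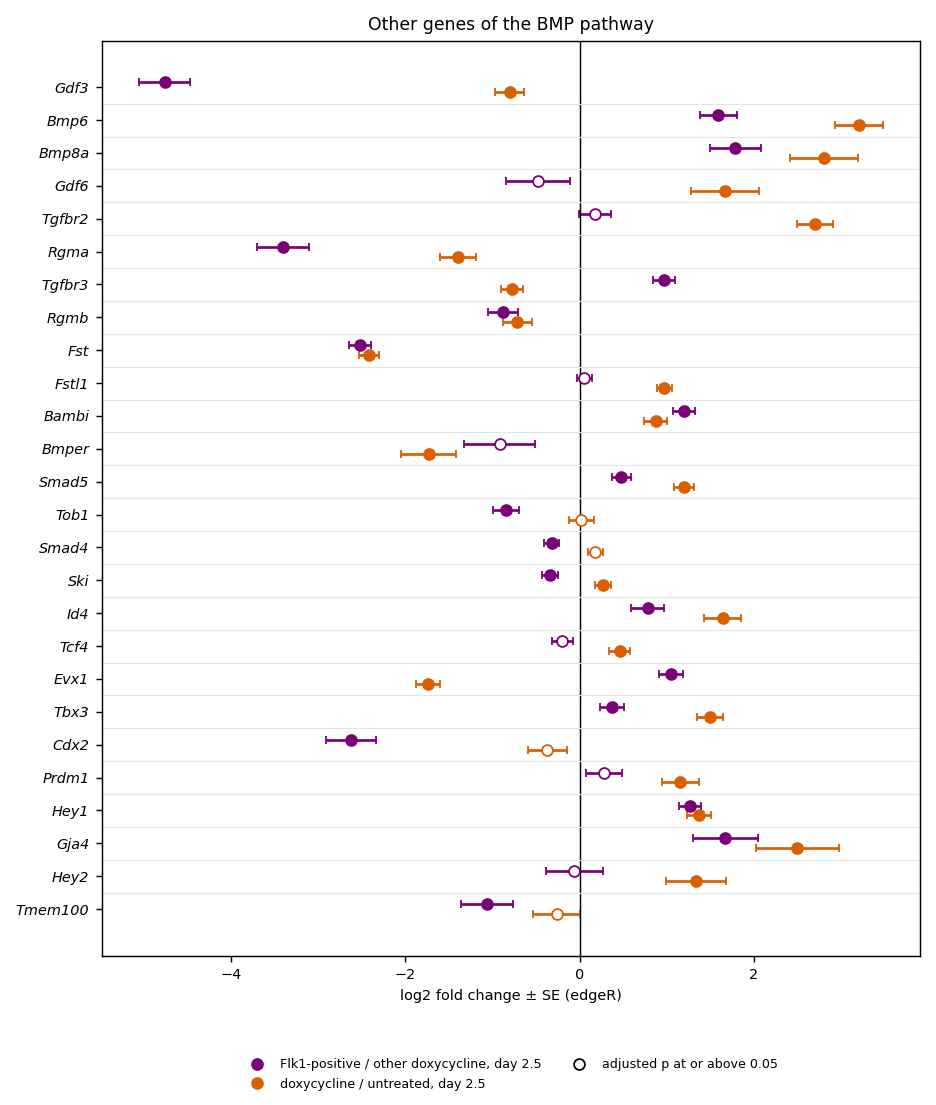
Log2 fold change ± SE (edgeR) of 26 other genes of the pathway at day 2.5, for Flk1-positive against other doxycycline samples (purple) and other doxycycline against untreated samples (orange), with open circles where the adjusted p was 0.05 or above. Bmp6, Bmp8a, Bambi, Smad5, Id4, Hey1 and Gja4 lie to the right in both, and Gdf3, Rgma, Rgmb and Fst to the left in both.

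The counts of small lists moved with single libraries and with settings of the fit. With doxycycline at day 2.5, the 1 rising receptor became 3 without either doxycycline day 2 library. The 3 rising and 1 falling Smads and regulators became 5 and 2 without either doxycycline day 2 library. The 3 became 1 without either library of the untreated day 2, other doxycycline or Flk1-positive groups or without untreated day 2.5 replicate 2, and the 1 became 0 without either library of the untreated day 2, other doxycycline or untreated day 2.5 groups. The 2 rising genes among Id4 and the E proteins became 1 without other doxycycline replicate 1 or untreated day 2.5 replicate 2, and 0 falling became 1 without either doxycycline day 2 library. The 2 falling targets became 1 without replicate 2 of the other doxycycline or untreated day 2.5 samples.

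For Flk1-positive against other doxycycline samples, leaving out 1 of the 4 compared libraries gave 0 to 1 rising and 1 to 2 falling Smads and regulators in place of 2 and 4. The 2 falling ligands became 1 without either Flk1-positive library or other doxycycline replicate 2. The 2 rising and 5 falling receptors became 1 and 3 without Flk1-positive replicate 1, and the 5 became 2 without replicate 2 of either group. The 2 rising antagonists became 1 without other doxycycline replicate 2, and the 2 falling became 1 without Flk1-positive replicate 2 or other doxycycline replicate 1. The 1 rising gene among Id4 and the E proteins became 0 without other doxycycline replicate 1, and 0 falling became 1 without either doxycycline day 2 library. The 2 rising targets became 1 without either library of the Flk1-positive, other doxycycline or untreated day 2 groups, and the 4 falling became 2 without Flk1-positive replicate 2. The 1 falling gene tied to Acvrl1 became 0 without either Flk1-positive library or other doxycycline replicate 1.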

How the data were processed

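RNA was sequenced from 10 libraries in 5 groups of 2. The deposited values are raw counts per gene. The submitters' processing notes name TopHat, HTSeq, DESeq2 and build mm10, with neither version nor role. For the annotation and strand setting of the authors' counting: not given in the sources used here. Of 23429 entries, 92 spike-in entries, all at 0 counts, were left out.

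In R 4.3.3, edgeR 4.0.16 kept 14548 genes (filterByExpr, minimum count 10, minimum total 15), scaled them by TMM and fitted a robust quasi-likelihood model with 1 mean per group, leaving 5 residual degrees of freedom. Benjamini-Hochberg adjustment ran over all tested genes in each of 7 comparisons, with a threshold of 0.05. SEs come from the F statistic. The fit was tested on simulated data. The libraries of a pair were not identical. Floors cover counting error only. Exon lengths come from GENCODE M21.

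The 10 genes and all lists were chosen with earlier results of these data known. All 10 were named, with up to 4 genes per list by smallest adjusted p. Alternatives were DESeq2 1.42.0, its size factors, no filter, the compared groups alone, a replicate block, removal of length and GC trends, and each library left out.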

Additional observations from a re-analysis of the deposited data

Results flagged for a closer look

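For 5 genes the effect of doxycycline differed between the 2 days by the interaction test (edgeR, adjusted p under 0.05), in the direction of a higher effect at day 2.5. The log2 difference of the effects was 3.30 for Acvrl1, 1.61 for Eng, 1.10 for Smad6, 1.48 for Id1 and 1.15 for Id3. Eng, Id1 and Id3 were called under all 16 alternatives. With 2 libraries a group, no group was large enough to be searched for outlying libraries.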

How the results depend on the processing

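Results were recomputed under 16 alternatives, 6 of them settings and 10 the loss of 1 library each. In other doxycycline against untreated samples of day 2.5 and in Flk1-positive against untreated samples, the counts of the 10 genes stayed within 1.5 times under every alternative. At day 2, the count called higher with doxycycline (1) was 2 with DESeq2, 3 without the filter and 2 with length and GC trends removed, and 0 called lower became 1 in each of the last 2. With 1 library left out the higher count ranged from 1 to 3 and the lower from 0 to 3. For Flk1-positive against other doxycycline samples, 0 called lower became 1 with only the compared groups or with trends removed (0 to 1 with a library left out). For day 2.5 against day 2, the 2 lower with doxycycline became 1 with only the compared groups or with trends removed (1 to 2 with a library left out), the 6 higher became 4 with only the compared groups, and the 1 higher without doxycycline ranged from 0 to 1. For the interaction, 5 higher became 8 with trends removed, 7 without the filter, 6 with DESeq2 and 4 with only the compared groups, and ranged from 3 to 8 with a library left out. With doxycycline at day 2.5, the 3 rising Smads and regulators became 1 with DESeq2, its size factors or no filter and 5 with only the compared groups, and the 1 falling became 2 with no filter, only the compared groups or trends removed. The 1 rising receptor became 3 with only the compared groups and 2 with trends removed, and 0 falling among Id4 and the E proteins became 1 under both. In Flk1-positive against other doxycycline samples, the 2 falling antagonists became 4 with no filter or only the compared groups, 0 falling among Id4 and the E proteins became 1 with only the compared groups, and the 2 rising targets became 1 with trends removed. The cause of these shifts was not tested.

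Differences that changed sign were not called with all libraries. With length and GC trends removed, Id2 in Flk1-positive against other doxycycline samples became 0.08 and Id3 over days with doxycycline 0.13. Tob1 with doxycycline at day 2.5 became 0.00 with DESeq2 or its size factors and -0.02 without the filter. With a library left out, doxycycline at day 2 gave -0.14 to 0.46 for Bmp4 and -0.88 to 0.02 for Smad6, and at day 2.5 gave -0.14 to 0.13 for Tob1. Flk1-positive against other doxycycline samples gave -0.12 to 0.01 for Id1, -0.16 to 0.05 for Id2 and -0.28 to 0.14 for Hey2. Day 2.5 against day 2 gave -0.33 to 0.18 for Id3 with doxycycline and -0.54 to 0.27 for Bmp2 without, and the interaction gave -0.08 to 0.04 for Bmp7.

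Correlations of same-numbered deviations between groups ran from -0.034 to 0.098, which gave no sign of pairing by number. They cannot exclude pairing, since counting error in the deviations of all tested genes lowers such correlations. A replicate block left every count of the 10 genes as it was, for instance 7 higher and 1 lower with doxycycline at day 2.5, and gave 2 in place of 1 falling Smads and regulators in that comparison and 4 in place of 2 falling antagonists in Flk1-positive against other doxycycline samples. Depth limits Acvrl1 most: its untreated level at day 2.5 rests on 6 counts, and the floor of 3 counts is 0.0824 to 0.164 CPM.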

Other observations

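For each of the 10 genes, the 2 genes closest in pattern were sought by the root mean square difference of centred log2 CPM over the 10 libraries, among about 10749 others with a mean of at least 5 CPM. The closest to Acvrl1 were Esam (0.544) and Slfn5 (0.590), against a spread of Acvrl1 itself of 2.48, and the closest to Eng were Mest (0.170) and Esyt1 (0.184), against 1.24. For Bmp2 they were Rassf2 (0.238) and Ctsh (0.271), for Bmp4 Arhgef1 (0.159) and Usp43 (0.161), and for Bmp7 Gnai2 (0.0911) and Zfp414 (0.101). For Smad6 they were Abca7 (0.162) and Gpc2 (0.163), and for Smad7, whose own spread was 0.199, 2410131K14Rik (0.0549) and Ing5 (0.0588). For Id1 they were Cryz (0.192) and Dynlt1a (0.217), for Id2 Cdc42se2 (0.114) and A730098P11Rik (0.124), and for Id3 Kank3 (0.202) and Cpt1c (0.236). The 10 libraries share groups and scaling, and likeness says nothing of shared control.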
